A study of Mus musculus with 3 samples.

Results

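CXCL12 and its receptors are 3 genes, Cxcl12, Cxcr4 and Ackr3, of the 32285 genes listed in each of 3 droplet-based single-cell RNA sequencing libraries of mouse dorsal skin. They were taken by name, because Cxcl12 encodes the target of the antibody given to 1 of the groups. The choice is by name and not by a measured level. All mice were female C3H/HeN animals aged 25 weeks, and the skin of 7 to 8 of them was pooled per group, so each group is 1 library. The Neg library is labelled a negative, vehicle-treated control, the AA library comes from the alopecia areata model, and the AA+Ab library from that model given a CXCL12-neutralizing antibody. AA was induced by intradermal transfer of lymph node cells that had been expanded in culture from AA-affected mice, so T cells in these skins can be of the host or of the transfer. The dose and the timing of the antibody are not given in the sources used here.

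Cxcl12 encodes a chemokine of the CXC family that is made by stromal cells and guides leukocytes. Cxcr4 encodes its G protein-coupled receptor, which directs the migration of T cells, myeloid cells and neutrophils. Ackr3, also called Cxcr7, encodes an atypical receptor that binds CXCL12, signals through arrestins and takes up the chemokine from the tissue. A neutralizing antibody binds the secreted protein, which these libraries do not measure, and the values below are of mRNA. In the mouse genome (GRCm38, which is mm10), Cxcl12 (ENSMUSG00000061353) lies on chromosome 6 from 117168535 to 117181367 on the plus strand. Cxcr4 (ENSMUSG00000045382) is a minus-strand gene of chromosome 1 (128588199 to 128592293), and Ackr3 (ENSMUSG00000044337) a plus-strand gene of the same chromosome (90203980 to 90216751). The GENCODE M21 annotation gives 3 coding transcripts of Cxcl12 with 3 or 4 exons and different 3′ ends, and the counts are per gene, so these forms were not told apart.

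After removal of barcodes with over 10% mitochondrial UMIs (unique molecular identifiers, which count captured mRNA molecules) or under 200 genes, 6582 of 6965 cells were kept in Neg, 10433 of 10879 in AA and 9832 of 10507 in AA+Ab. These cells held 119193310, 135609481 and 139663314 UMIs, with medians per cell of 13694.5, 11177 and 11371. Neg and AA together had 17844 barcodes, of which 17015 passed this filter. The study, which also removed doublets, kept fewer. Among the marker lists summed over all cells, red blood cell genes stood at 124, 3.69 and 114 CPM in Neg, AA and AA+Ab and neutrophil genes at 88.1, 20.6 and 155, so the AA library stands apart in its blood cells. Levels are given as CPM, the UMIs of the gene per 1000000 UMIs of the same cells. With 1 library per group no test between groups was possible. Every interval is a 95% interval that covers counting error only (Poisson for CPM, Clopper-Pearson for shares of cells, exact conditional for ratios), and says nothing of the spread between mice.

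By summed UMIs over all cells, Cxcl12 mRNA was higher in both libraries of AA mice than in Neg. By that sum it was at nearly the same level with and without the antibody. Cxcl12 was at 16.7 CPM in Neg (interval 16.0 to 17.5, 1994 UMIs), 24.4 in AA (23.5 to 25.2, 3305 UMIs) and 23.3 in AA+Ab (22.5 to 24.1, 3259 UMIs). The ratio was 1.46 for AA over Neg (1.38 to 1.54), 1.39 for AA+Ab over Neg (1.32 to 1.48) and 0.957 for AA+Ab over AA (0.912 to 1.01). The AA and AA+Ab levels from summed UMIs thus differ by no more than counting error, and both lie above Neg. With cell classes weighted to their shares in Neg, the AA+Ab over AA ratio was 1.19, outside that interval. Of the receptors, Ackr3 was at 65.7 CPM in Neg (64.2 to 67.1), 66.2 in AA (64.8 to 67.6) and 69.1 in AA+Ab (67.7 to 70.5), so the atypical receptor had the most UMIs of the 3 genes in every library and its largest ratio was 1.05 (AA+Ab over Neg, 1.02 to 1.08). Cxcr4 had the fewest UMIs, with 2.47 CPM in Neg (2.19 to 2.77, 294 UMIs), 2.76 in AA (2.49 to 3.05, 374 UMIs) and 3.44 in AA+Ab (3.14 to 3.76, 480 UMIs). Its ratio was 1.39 for AA+Ab over Neg (1.20 to 1.62), 1.25 for AA+Ab over AA (1.09 to 1.43) and 1.12 for AA over Neg (0.957 to 1.31), the last of which includes no difference. Cxcr4 depended on how cells were weighed. On the log2 scale its AA+Ab over AA value was 0.32 from summed UMIs, 0.97 as a mean of per-cell CPM and 1.26 with cells drawn to equal depth, and its AA over Neg value was 0.16, -0.18 and -0.36 in that order. None of the 3 genes reached a ratio of 1.5 either way over all cells, although the Cxcl12 ratio of AA over Neg was 1.51 once the highest cell of each library was left out, and that of AA+Ab over Neg was 1.66 with cell classes weighted to their shares in Neg. Over all cells, more cells of a type and more mRNA per cell cannot be told apart. By that measure 12.7% of 17354 genes differed between AA and Neg, 13.2% of 17389 between AA+Ab and AA, and 9.4% of 17395 between AA+Ab and Neg, among genes with at least 20 UMIs in both libraries.

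**Figure D1:**
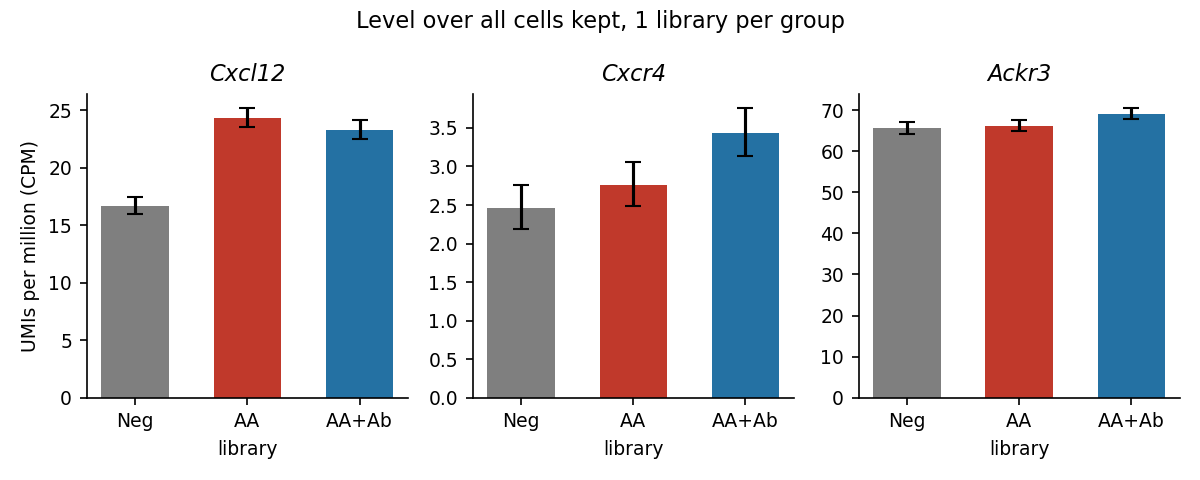
Bars give the level in CPM (y axis, starting at 0) of Cxcl12, Cxcr4 and Ackr3 over all cells kept in the Neg, AA and AA+Ab libraries (x axis), with 95% Poisson intervals that cover counting error only. Cxcl12 stands at 16.7 in Neg and at 24.4 and 23.3 in AA and AA+Ab, Cxcr4 is highest in AA+Ab at 3.44, and Ackr3 lies between 65.7 and 69.1.

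The share of cells with at least 1 UMI also depends on depth, and Neg cells were the deepest. A Cxcl12 UMI was found in 11.4% of cells in Neg (10.7 to 12.2), 12.1% in AA (11.4 to 12.7) and 13.2% in AA+Ab (12.5 to 13.9). An Ackr3 UMI was found in 38.4%, 33.1% and 35.9% of cells, and a Cxcr4 UMI in 2.37%, 2.09% and 2.83%. The order of the Ackr3 shares goes against its CPM, so no order is read from it. When 1000 UMIs were drawn from each cell, with 290 shallower cells of Neg, 86 of AA and 158 of AA+Ab omitted, Cxcl12 was seen in 1.68%, 2.35% and 2.29% of cells, Cxcr4 in 0.524%, 0.396% and 0.858%, and Ackr3 in 6.66%, 6.69% and 7.19%. Cells that should lack a gene set the level of free RNA. Among 443 T cells (median 3995 UMIs), 0 had a Cxcl12 UMI, which by a floor of 3 counts allows a share of cells with a UMI of up to 0.677%, and 3 had an Ackr3 UMI. Among 2484 suprabasal epidermal cells (median 14400.5 UMIs), 11 had a Cxcr4 UMI, which is 0.443% (0.221 to 0.791).

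To see which cells carried each gene, the cells of the 3 libraries were clustered together with the 3 genes left out of the variable genes, and clusters were named from marker lists. A name means only that the cells are like that class by its markers. Keratinocytes made up 5585, 9278 and 8546 cells in Neg, AA and AA+Ab, in 20 clusters. T cells numbered 51, 238 and 154, and the T cell class was mostly CD8 T cells in AA (174 of 238) but not in Neg (9 of 51) or AA+Ab (68 of 154). A cluster led by Col1a2, Col3a1 and Col1a1, collagen genes of dermal fibroblasts, passed 7 of 7 fibroblast markers and numbered 75, 131 and 51 cells. Clusters left without a name, among them low-UMI ones, doublet-rich ones and ones led by natural killer cell genes, held 561, 325 and 428 cells.

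The 3 genes were distributed differently over the cells. Keratinocytes held 74.3%, 83.1% and 79.8% of the Cxcl12 UMIs of Neg, AA and AA+Ab, and the fibroblast cluster held 22.3%, 15% and 17.9% although it was 1.14%, 1.26% and 0.519% of the cells. Of the Ackr3 UMIs, keratinocytes held 92.6%, 95% and 94.5%. That is close to their 90.3%, 93.5% and 91.7% of all UMIs, and their Cxcl12 shares were below it. Cxcr4 was spread over leukocytes, where T cells held 19.4%, 30.2% and 27.9% of its UMIs, DC/Mac (dendritic cells and macrophages) 9.86%, 18.2% and 8.96%, and neutrophils 2.72%, 1.07% and 11%. Keratinocytes held 28.2%, 26.2% and 17.3% of the Cxcr4 UMIs, at a level below 1 CPM. The clusters without a name held 33.3%, 18.4% and 21.25%, in Neg more than any named class.

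**Figure D2:**
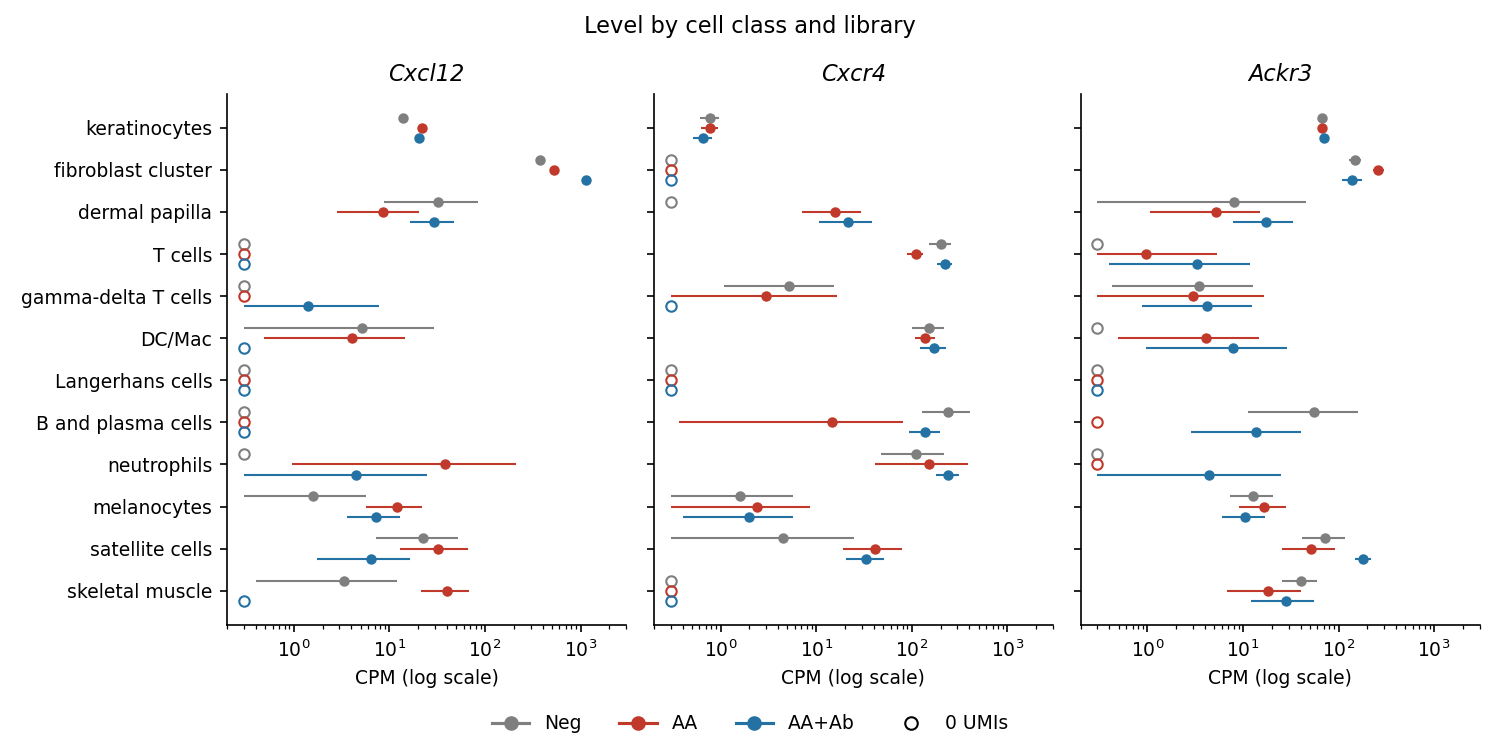
Points give CPM (x axis, log scale) of each gene in 12 cell classes (y axis) for the Neg, AA and AA+Ab libraries, with 95% Poisson intervals drawn down to 0.3 CPM; open circles at the left mark 0 UMIs. Cxcl12 is highest in the fibroblast cluster, Cxcr4 lies above 100 CPM in T cells and DC/Mac of every library, and Ackr3 is highest in the fibroblast cluster, keratinocytes and satellite cells.

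Within the fibroblast cluster Cxcl12 was at 380 CPM in Neg (345 to 417), 529 in AA (483 to 577) and 1142 in AA+Ab (1051 to 1238), the highest level of any class in each library. The ratios were 1.39 for AA over Neg (1.22 to 1.59), 2.16 for AA+Ab over AA (1.91 to 2.44) and 3.01 for AA+Ab over Neg (2.65 to 3.41). Among all genes with enough UMIs in this cluster, 18.3%, 18.5% and 14.7% were higher by 1.5-fold in these comparisons, so differences of this size were common in so few cells. At a finer clustering (resolution 1.5 in place of 0.8) the cluster fell into a fibroblast part of 193 cells and an endothelial part of 63 cells, with 1 AA+Ab cell in neither. The parts differed in their markers. In the fibroblast part Dcn was found in 99.5% of cells and Cdh5 and Emcn, genes of vessel lining cells, in 0, whereas in the endothelial part Pecam1 was found in 54.0% of cells, Emcn in 46.0% and Lum and Dpt in 0. The endothelial part also held lymphatic and smooth muscle genes, among them Ccl21a in 11.1% of its cells and Tagln in 31.7%. It made up 37.3% of the cluster in Neg, 12.2% in AA and 37.3% in AA+Ab, but its makeup differed, since a UMI of Pecam1 or Cdh5 was found in 9 of its 28 cells in Neg, 11 of 16 in AA and 15 of 19 in AA+Ab. The lymphatic marker list over all cells was at 0.680, 3.73 and 9.14 CPM in the same libraries, and the part of this in the values below was not tested.

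In the fibroblast part, Cxcl12 was at 245 CPM in Neg (206 to 288, 47 cells), 509 in AA (463 to 559, 115 cells) and 649 in AA+Ab (560 to 749, 31 cells). It was seen in 80.9%, 66.1% and 74.2% of these cells, so most fibroblasts carried it in every library. The ratio was 2.08 for AA over Neg (1.72 to 2.53), 2.66 for AA+Ab over Neg (2.13 to 3.32) and 1.27 for AA+Ab over AA (1.07 to 1.51), where 7.68%, 11% and 17.6% of genes were higher by 1.5-fold. With the 1 cell in neither part counted, the ratio of AA+Ab over AA was 1.19. The highest single fibroblast had 11 UMIs in Neg, 50 in AA and 33 in AA+Ab, and cells with at least 20 UMIs numbered 0 of 47, 6 of 115 and 3 of 31. Without these cells, left out after the values were seen, the levels were 245, 312 and 393 CPM, and the median among cells with a UMI was 3, 3 and 5, so much of the distance between AA and Neg lay in 6 cells.

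In the endothelial part Cxcl12 was carried by a few cells with very many UMIs. Cells with at least 20 UMIs, a cut set after the values were seen, numbered 4 of 28 in Neg, 1 of 16 in AA and 6 of 19 in AA+Ab, and they held 294 of 299, 46 of 49 and 390 of 396 Cxcl12 UMIs. All other cells of this part had at most 3. The highest cell had 102 UMIs in Neg, 46 in AA and 122 in AA+Ab. Cells with a UMI of Pecam1 or Cdh5 (35 cells) held 739 Cxcl12 UMIs, and those without (28 cells) held 5. The level of the part was 519 CPM in Neg (462 to 581), 809 in AA (599 to 1070) and 1957 in AA+Ab (1769 to 2160). With 4, 1 and 6 cells behind these values, they describe those cells, and in this part 44.4% of genes differed by 1.5-fold between AA+Ab and Neg.

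**Figure D3:**
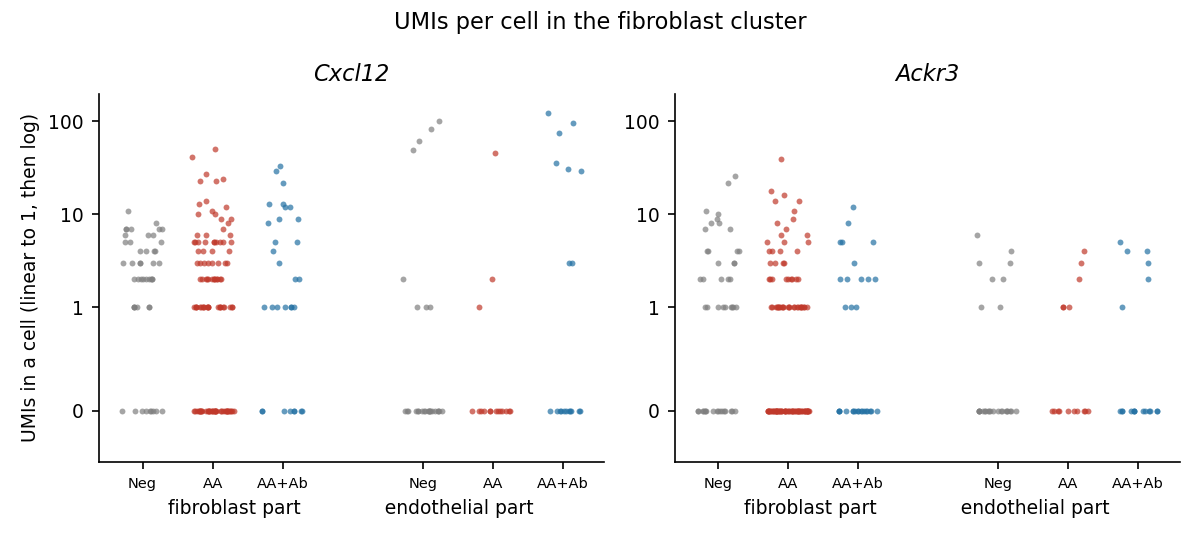
Each point is 1 cell of the fibroblast cluster, split into its fibroblast part (193 cells) and endothelial part (63 cells), without the 1 cell in neither, and by library (x axis), with its UMIs of Cxcl12 or Ackr3 (y axis, linear to 1 and logarithmic above). Cxcl12 is in most fibroblasts at a few UMIs and in 4, 1 and 6 endothelial-part cells of Neg, AA and AA+Ab at 20 UMIs or more, while Ackr3 reaches 26, 39 and 12 UMIs in single fibroblasts.

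Ackr3 was also found in fibroblasts. In the fibroblast part it was at 256 CPM in Neg (217 to 300), 266 in AA (233 to 302) and 176 in AA+Ab (131 to 232). Neg and AA did not differ beyond counting error (ratio 1.04, 0.843 to 1.28), and AA+Ab was lower than both, with ratios of 0.662 to AA (0.479 to 0.900) and 0.687 to Neg (0.490 to 0.949). Here 12.9% and 8.3% of genes were lower by 1.5-fold, and the AA+Ab level rests on 51 UMIs in 14 of 31 cells. For the cluster as a whole the values were 149, 262 and 139 CPM, and the AA over Neg ratio of 1.76 (1.44 to 2.15) was not seen in its fibroblast part. The 5 highest cells of the whole cluster held 44.8%, 41.1% and 49.3% of its Ackr3 UMIs in Neg, AA and AA+Ab, so few cells weigh on these levels. Of the cells of the cluster, 156 had a Cxcl12 UMI, 121 an Ackr3 UMI and 77 both, and Cxcr4 had 0 UMIs in all 257 cells, which by the same floor allows a share of cells with a UMI of up to 1.17%. Cells of the dermal papilla, the fibroblasts at the base of the hair follicle, named from Corin and other markers, differed from both. They had Cxcl12 at 32.6, 8.67 and 29.0 CPM from 4, 5 and 15 UMIs, and Ackr3 at 8.15, 5.2 and 17.4 CPM from 1, 3 and 9 UMIs. These counts are too few to compare the libraries.

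In keratinocytes as a whole, Cxcl12 was at 13.8 CPM in Neg (13.1 to 14.5), 21.7 in AA (20.9 to 22.5) and 20.3 in AA+Ab (19.5 to 21.1). The ratio was 1.57 for AA over Neg (1.48 to 1.68), 1.48 for AA+Ab over Neg (1.38 to 1.57) and 0.938 for AA+Ab over AA (0.888 to 0.990), beside 4.43%, 1.61% and 3.9% of genes higher by 1.5-fold. With the 20 clusters weighted to their shares in Neg, a calculation added after the data were seen, these ratios were 1.20, 1.11 and 0.923, so the difference from Neg was smaller at equal cluster shares.

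Cxcl12 in keratinocytes was highest in 3 clusters, of which 2 passed most markers of a hair follicle layer. A cluster led by Trabd2b and Krt6a, which passed 6 of the 7 markers of outer bulge and outer root sheath (the outer epithelial layers of the follicle), had the highest level, with 131 CPM in Neg (114 to 150), 172 in AA (161 to 184) and 174 in AA+Ab (157 to 193). Its ratio to Neg was 1.31 in AA (1.13 to 1.53) and 1.33 in AA+Ab (1.12 to 1.58), and AA+Ab over AA was 1.01 (0.892 to 1.15). A cluster led by Fst and Sostdc1, which passed 3 of those 7 markers and so has no name, was next with 73.9, 92.4 and 98.4 CPM, and ratios of 1.25 (1.11 to 1.41), 1.06 (0.973 to 1.17) and 1.33 (1.19 to 1.49) for AA over Neg, AA+Ab over AA and AA+Ab over Neg. Upper hair follicle cells, led by Krt79 and Cst6, had 52.9, 57.5 and 75.7 CPM, with a ratio of 1.32 for AA+Ab over AA (1.13 to 1.54). In these clusters no ratio reached 1.5, and both AA libraries were above Neg beyond counting error except for AA in the upper hair follicle (ratio 1.09, 0.914 to 1.29). Together the 3 clusters were 14.7%, 16.3% and 21.1% of keratinocytes and held 67.2%, 67.6% and 81.1% of their Cxcl12 UMIs. The Krt6a-led cluster alone was 2.02%, 3.89% and 1.99% of keratinocytes and held 14.2%, 29.8% and 13.7% of those UMIs.

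Basal epidermis had little Cxcl12, and AA+Ab was the lowest library there. In basal epidermis, the cluster led by Depp1 and Ccn1 had 7.32, 8.52 and 4.61 CPM in Neg, AA and AA+Ab, and the cluster with Adm among its leading genes had 11.7, 13.4 and 8.02. The ratio of AA+Ab over AA was 0.541 (0.4 to 0.725) in the first and 0.6 (0.452 to 0.787) in the second, where 6.27% and 8.23% of genes were lower by 1.5-fold. Another cluster with the keratinocyte markers, led by Il20ra, had 2.71, 6.66 and 2.53 CPM, a ratio of 2.46 for AA over Neg (1.48 to 4.21) and of 0.380 for AA+Ab over AA (0.228 to 0.619), beside 3.13% of genes higher and 5.76% lower by 1.5-fold. These levels rest on 23 to 266 UMIs per library. Cycling keratinocytes led by Anln had 9.73, 19.1 and 17.0 CPM, with a ratio of 1.97 for AA over Neg (1.41 to 2.77) beside 2.87% of genes higher, and 16.5% of that cluster were scored as doublets. Of the keratinocyte clusters with at least 20 Cxcl12 UMIs in both libraries, 2 of 10 were higher by 1.5-fold in AA than in Neg and 1 was lower. In AA+Ab over AA, 1 of 12 was higher and 5 were lower. Both counts use the same AA library. In AA+Ab over Neg, 1 of 10 was higher and 2 were lower.

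**Figure D4:**
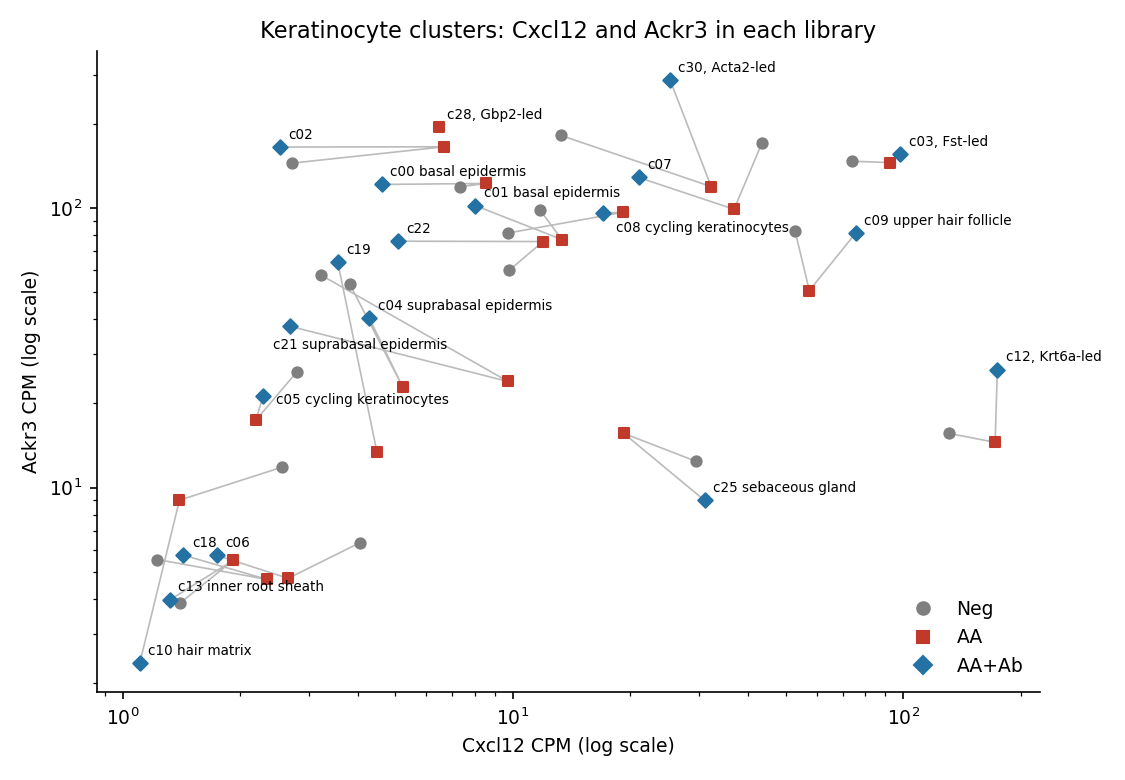
Each point is a keratinocyte cluster in 1 library with at least 20 cells, placed by its Cxcl12 level (x axis) and Ackr3 level (y axis) in CPM, both on log scales; grey lines join the libraries of a cluster, and c with a number is the cluster's code. The Krt6a-led cluster (c12) stands apart with Cxcl12 at 131 to 174 CPM and Ackr3 at 14.5 to 26.5, the Fst-led cluster (c03) is high in both, and hair matrix and inner root sheath are low in both.

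Ackr3 had another pattern among keratinocytes. It was high in basal epidermis, in the Il20ra-led cluster and in the Fst-led cluster, with 145, 166 and 166 CPM in the Il20ra-led cluster, 119, 123 and 122 in the first basal cluster, and 147, 146 and 156 in the Fst-led cluster. It was low in the Krt6a-led cluster that had the most Cxcl12 (15.6, 14.5 and 26.5 CPM), in hair matrix, the dividing cells of the follicle base (11.8, 9.01 and 2.35), and in inner root sheath (3.85, 5.49 and 3.97). A group of 93 cells led by Tagln and Acta2, contractile genes, with keratinocyte markers, had 182, 119 and 288 CPM. In the 148 cells of a cluster led by the interferon-induced genes Iigp1 and Gbp2b, of which 140 were of AA, Ackr3 was at 195 CPM in AA (174 to 217). Cells that had both Cxcl12 and Ackr3 UMIs numbered 1367, which was 44.9% of the 3046 keratinocytes with Cxcl12, against 38.2% of all keratinocytes with Ackr3. Deeper cells are more often seen with either gene, and the part of depth was not tested.

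Between libraries, Ackr3 in suprabasal epidermis was lowest in AA. In the Krt1-led cluster of suprabasal epidermis, the differentiating layers marked by Krt1 and Krt10, it was at 53.7 CPM in Neg (49.2 to 58.5), 22.8 in AA (20.4 to 25.5) and 40.4 in AA+Ab (36.9 to 44.1). The ratio was 0.425 for AA over Neg (0.369 to 0.489) and 1.77 for AA+Ab over AA (1.53 to 2.04), where 9.48% of genes were lower and 3.83% higher by 1.5-fold. The second suprabasal cluster, led by Orm1 and Hal, had 57.7, 24 and 37.8 CPM, with ratios of 0.416 (0.286 to 0.588) and 1.58 (1.10 to 2.32), beside 4.74% lower and 2.18% higher. Upper hair follicle cells had 82.8, 50.7 and 81.5 CPM, with ratios of 0.613 (0.518 to 0.723) and 1.61 (1.37 to 1.90), beside 4.65% lower and 2.43% higher. AA was the lowest library in these 3 clusters, and AA+Ab lay between AA and Neg or at the level of Neg. Of the keratinocyte clusters with enough UMIs, 5 of 16 were lower by 1.5-fold in AA than in Neg and 0 higher. In AA+Ab over AA, 5 of 14 were higher and 0 lower. Both counts use the same AA library, so they are not independent. In AA+Ab over Neg, 2 of 14 were higher and 1 lower. Over keratinocytes as a whole these differences were not seen, with 67.4, 67.3 and 71.2 CPM.

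Cxcr4 had its highest levels in leukocytes, and in T cells, as named from clusters, it was lower in AA than in the other libraries. T cells, marked by Cd3e and Trac, had Cxcr4 at 200 CPM in Neg (152 to 260, 57 UMIs), 109 in AA (90.2 to 132, 113 UMIs) and 221 in AA+Ab (185 to 262, 134 UMIs). A UMI was found in 49.0% of T cells in Neg, 23.1% in AA and 39.6% in AA+Ab. With cells drawn to 1000 UMIs these shares were 12%, 8.44% and 21.1%, from 6, 20 and 31 cells. The ratio was 0.546 for AA over Neg (0.394 to 0.764), 2.02 for AA+Ab over AA (1.56 to 2.62) and 1.10 for AA+Ab over Neg (0.804 to 1.53), beside 15.5% of genes lower, 8.65% higher and 6.32% higher by 1.5-fold. The AA level lies outside the counting error of the other libraries, which by summed UMIs did not differ from each other beyond it. At equal depth, and with classes from markers in each cell, AA+Ab over Neg lay above that counting interval. The 5 highest T cells held 52.6%, 25.7% and 27.6% of the T cell Cxcr4 UMIs in Neg, AA and AA+Ab. The T cell clusters differ in their shares, and with these weighted to Neg the ratios were 0.720, 1.78 and 1.28. With classes taken from markers in each cell in place of clusters, the log2 ratio of AA over Neg was -0.092 against -0.87, so the lower level in AA was not seen under that naming.

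Within the CD8 T cells and the T cells without a subset name, AA+Ab was again above AA. CD8 T cells, the cytotoxic subset, had Cxcr4 at 93.8 CPM in AA (72.4 to 120, 174 cells) and 209 in AA+Ab (155 to 276, 68 cells), with a ratio of 2.23 (1.51 to 3.28), beside 7.86% of genes higher by 1.5-fold. In Neg this cluster was 9 cells with 6 Cxcr4 UMIs, too few to compare. CD4 T cells had 67.0, 70.8 and 117 CPM from 11, 16 and 31 UMIs, too few for a ratio. T cells that passed neither list, with Il7r and Icos among their leading genes, had the highest level, 438, 281 and 514 CPM, and a ratio of 1.83 for AA+Ab over AA (1.16 to 2.92) and of 0.643 for AA over Neg (0.391 to 1.05), beside 5.89% of genes higher and 14.5% lower. A cluster without a name, which held Xcl1 and the natural killer cell gene Ncr1 among its leading genes, had 236, 108 and 223 CPM, with a ratio of 0.459 for AA over Neg (0.281 to 0.736) and of 2.06 for AA+Ab over AA (1.27 to 3.38), beside 8.09% of genes lower and 7.62% higher. In the last 2 of these, where each library had at least 20 UMIs, AA had the lowest level.

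**Figure D5:**
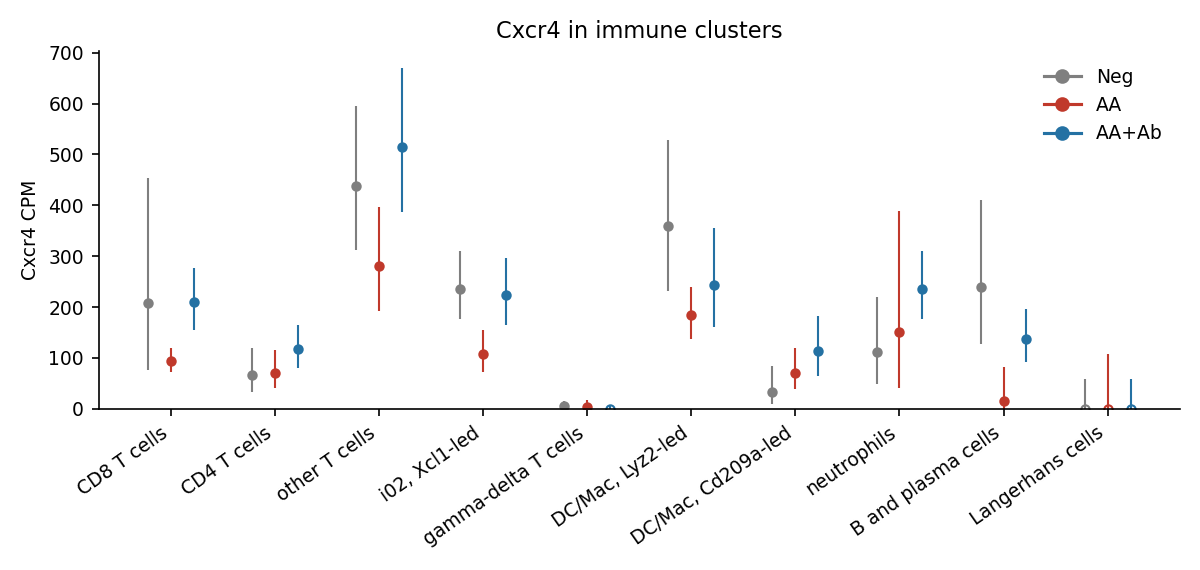
Points give Cxcr4 in CPM (y axis, from 0) with 95% Poisson intervals in 10 immune clusters (x axis) of the Neg, AA and AA+Ab libraries; open points mark 0 UMIs. CD8 T cells stand at 93.8 in AA and 209 in AA+Ab, and gamma-delta T cells and Langerhans cells are at or near 0.

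Other leukocytes split into those with and without the receptor. DC/Mac had Cxcr4 at 151, 138 and 170 CPM in Neg, AA and AA+Ab, with every ratio between the libraries within counting error (0.917, 0.586 to 1.47, for AA over Neg). The AA+Ab over AA value there was not stable, with a log2 ratio of 0.30 from summed UMIs, 0.90 as a mean of per-cell CPM, 1.22 at equal depth and -0.37 with classes from markers in each cell. The AA+Ab over Neg value was 0.18 from summed UMIs and 1.63 at equal depth. Their Lyz2-led cluster, which also had C1qa, a macrophage gene, was higher (358, 184 and 244 CPM) than their cluster led by Cd74 with Cd209a (32.6, 70.8 and 113, from only 4, 14 and 16 UMIs), and in the former the AA over Neg ratio was 0.512 (0.313 to 0.859). There 20.8% of genes were lower by 1.5-fold, and the cluster had 19, 64 and 38 cells in Neg, AA and AA+Ab. The 5 highest DC/Mac cells held 79.3%, 44.1% and 51.2% of the Cxcr4 UMIs of DC/Mac, so few cells weigh on these values. Neutrophils had 111, 152 and 236 CPM from 8, 4 and 53 UMIs, and B and plasma cells 240, 14.6 and 137 CPM from 13, 1 and 30 UMIs, which do not allow a ratio. Gamma-delta T cells of the epidermis, marked by Trdc, had 4 Cxcr4 UMIs in 339 cells, and Langerhans cells, the dendritic cells of the epidermis, had 0 in 29 cells, which by that floor allows a share of cells with a UMI of up to 10.3%. The immune clusters as a whole, doublet-rich ones included, had 71.9, 73.0 and 94.4 CPM (ratio of AA+Ab to AA 1.29, 1.10 to 1.52). Their makeup differed between Neg, AA and AA+Ab, with 24, 11 and 85 neutrophils and 8, 8 and 24 B and plasma cells. The part of this makeup in the pooled level was not tested.

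In named classes other than leukocytes, Cxcr4 was at lower levels than in T cells or DC/Mac. Dermal papilla cells had 0, 15.6 and 21.3 CPM from 0, 9 and 11 UMIs, with a UMI in 13 of 189 cells. Keratinocytes had Cxcr4 at 0.771, 0.773 and 0.648 CPM, and 220 of 23409 had a UMI. Of these 220 cells, 12.7% had UMIs of at least 2 of 10 immune genes and 14.1% were scored as doublets, against 2.40% and 5.83% of the other keratinocytes. Their part in the keratinocyte level was not tested. The Krt6a-led cluster had 11.2, 4.42 and 4.41 CPM and the Anln-led cycling cluster 4.77, 3.51 and 2.81. Both were above the 0.0712, 0.252 and 0.364 CPM of suprabasal epidermis. They rest on 48 and 66 Cxcr4 UMIs over the 3 libraries. Doublets were scored at 11.6% and 16.5% of their cells, against 7.97% and 6.37% in the suprabasal clusters, and the part of doublets was not tested. Satellite cells, the stem cells of skeletal muscle marked by Pax7, had Cxcr4 at 4.51, 41.7 and 33.5 CPM from 1, 9 and 21 UMIs. The same cells had Ackr3 at 72.1 CPM in Neg (41.2 to 117), 50.9 in AA (25.4 to 91.1) and 180 in AA+Ab (148 to 217). These levels come from 16, 11 and 113 UMIs, too few in Neg and AA for a ratio. An Ackr3 UMI was found in 52.9%, 16.3% and 37.8% of these cells, so the share was highest in Neg and the CPM in AA+Ab. Satellite cells numbered 17, 43 and 119, and 13 of the 26 with a Cxcr4 UMI also had an Ackr3 UMI.

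The pathway around the 3 genes was read from a list of 29 genes, of which 28 are in the files and 26 had at least 20 UMIs in both libraries of every comparison. Over all cells, 2 of 26 were higher and 1 lower by 1.5-fold in AA than in Neg, 1 was higher and 4 lower in AA+Ab than in AA, and 2 were higher and 1 lower in AA+Ab than in Neg. Of all genes, 6.07% were higher and 6.58% lower in the first comparison, 4.6% and 8.56% in the second, and 3% and 6.4% in the last. The median log2 ratio of the list was 0.01, 0.02 and -0.01, against -0.06, 0.01 and -0.05 for all genes tested. Among the co-receptors, Cd74, the invariant chain of MHC class II and a partner of CXCR4 in binding MIF, was at 67.7 CPM in Neg, 140 in AA and 77.6 in AA+Ab, with ratios of 2.07 (2.02 to 2.13) for AA over Neg and 0.552 (0.539 to 0.566) for AA+Ab over AA. Cd74 is itself in the DC/Mac marker list, whose sum of 123, 254 and 141 CPM is therefore not independent of it. It was also among the leading genes of the Iigp1-led keratinocyte cluster, where 140 of 148 cells were of AA. The part of cell numbers in the Cd74 values was not tested. Among other ligands of ACKR3, Adm (adrenomedullin) was at 19.3, 32.0 and 13 CPM, with ratios of 1.65 (1.57 to 1.74) and 0.405 (0.383 to 0.428). Adm is among the leading genes of a basal epidermis cluster with 519 of 6582 cells in Neg, 1623 of 10433 in AA and 668 of 9832 in AA+Ab. The part of cell numbers in the Adm values was not tested. Penk (proenkephalin), also a ligand of ACKR3, was at 1.02, 1.42 and 0.809 CPM, with a ratio of 0.568 for AA+Ab over AA (0.447 to 0.721). Cd74, Adm, Penk and Hif1a are the 4 list genes lower by 1.5-fold in AA+Ab than in AA, so AA above AA+Ab follows from that choice. AA was also above Neg for each. Some list genes within 1.5-fold had this order too, and others did not.

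Of the proteases that cut CXCL12, Mmp9 had 60, 31 and 124 UMIs in Neg, AA and AA+Ab, with ratios of 0.454 for AA over Neg (0.284 to 0.712), 3.88 for AA+Ab over AA (2.60 to 5.96) and 1.76 for AA+Ab over Neg (1.29 to 2.44). Mmp9 is a gelatinase that neutrophils carry, and the summed neutrophil marker list was at 88.1, 20.6 and 155 CPM in the same libraries. The part of cell numbers in these values was not tested. Hif1a, an oxygen-sensing transcription factor known to induce Cxcl12 and Cxcr4, was at 227, 337 and 220 CPM, with a ratio of 0.655 for AA+Ab over AA (0.645 to 0.664). Foxc1, a transcription factor that stromal cells use to keep Cxcl12 high, was at 6.31, 7.23 and 9.79 CPM, with a ratio of 1.55 for AA+Ab over Neg (1.42 to 1.70). Rgs16, which dampens G protein signals, was at 4.36, 3.93 and 2.82 CPM, with a ratio of 0.647 for AA+Ab over Neg (0.566 to 0.739). The arrestin, G protein and receptor kinase genes were within 1.5-fold in every comparison, and the neutrophil protease genes Elane and Ctsg had 0 to 2 UMIs per library.

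Across 28 profiles of 11 cell classes by library, the genes most like each of the 3 were found by Pearson's r of log2(CPM + 5) among 15161 genes. These profiles share libraries and differ in depth, so r is a description. For Cxcl12 they were Ces2g (0.92), Sncg (0.91), Mmp2 (0.90), Mmp3 (0.90) and Glt8d2 (0.90), where Mmp2 and Mmp3 encode matrix metalloproteinases. For Cxcr4 they were Sla (0.92), Itga4 (0.92), Pim1 (0.92), Raet1e (0.90) and Gpr132 (0.90), where Itga4 encodes an integrin of leukocyte homing and Sla an adaptor of antigen receptor signals. For Ackr3 they were Ntn4 (0.91), Tnxb (0.91), Nfib (0.89), Ank3 (0.89) and Egfr (0.89), of which Egfr encodes the epidermal growth factor receptor of keratinocytes.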

How the data were processed

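Skin cells of Neg, AA and AA+Ab mice were measured as 10x Genomics 3′ v3.1 libraries. The authors aligned reads to mm10 and counted UMIs with Cell Ranger 7.2.0, and the deposited values are raw UMI counts per gene and barcode, without normalization. The other deposited columns hold gene and barcode names. Sequencing depth per library is given by the UMI totals, and 3′ counting does not separate transcript forms. The cell filter was that of the study's methods, at most 10% of UMIs from mitochondrial genes and at least 200 genes. Doublets were scored against simulated doublets at a rate set to 0.8% per 1000 barcodes and taken out only as an alternative (347, 871 and 773 cells), while the study removed them. Libraries shared 14 to 23 barcodes per pair.

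Counts were log-normalized, and 2000 variable genes without Cxcl12, Cxcr4 and Ackr3 gave 30 principal components, a graph of 20 neighbours and Leiden clusters at resolution 0.8, without integration. Clusters with Ptprc in at least 50% of cells were clustered again with 15 components. A class other than keratinocytes, or a keratinocyte subset, needed at least 3 markers and 50% of its list. A marker counted when found in 25% of cells at 2 times the CPM elsewhere. Keratinocytes were named where no other class passed and at least 6 of 15 keratinocyte markers were found in 50% of cells, without a fold. These thresholds were set after clusters were seen. Clusters of at least 50% doublets stayed unnamed. The analysis used Python 3.11.15, numpy 2.4.6, scipy 1.17.1, scikit-learn 1.9.0 and leidenalg 0.10.2.

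CPM, shares and ratios were computed from summed UMIs. A ratio was given where both libraries had at least 20 UMIs, and 1.5 was the fold used to count genes. The gene counting was tested on simulated data with 200 changed genes. Groups came from the sample titles. There was no test between groups, and an edgeR fit could not be made with 1 library per group. The text names the 3 genes, every list gene past 1.5-fold over all cells, the 5 genes most like each member, and markers of described classes. Clusters and keratinocyte subsets named beyond these, and the Pecam1 and Cdh5 split, were chosen after values were seen. The genes, lists and classes were chosen with earlier results of these data known. No authors' annotation of cells was used here.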

Additional observations from a re-analysis of the deposited data

How the results depend on the processing

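No paired analysis was possible because each group is 1 library, and for the same reason no replicate could be left out. Each ratio was set against several alternatives, and the counts here are of pairs of a ratio and an alternative. Within cell classes, 180 pairs lay inside the counting interval of the main ratio, 48 lay outside and 3 reversed. Over all cells, 58 lay inside and 14 outside. A reversal was counted only where the main interval did not include a ratio of 1, so other changes of sign are counted as inside or outside. Values below are log2 ratios unless stated, and the cause was not tested.

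Over all cells, the mean of per-cell CPM gave Cxcl12 0.67 (AA over Neg) and 0.56 (AA+Ab over Neg), Cxcr4 -0.18 (AA over Neg), 0.97 (AA+Ab over AA) and 0.80 (AA+Ab over Neg), and Ackr3 0.14 (AA+Ab over AA) and 0.12 (AA+Ab over Neg). Thinning to 1000 UMIs gave Cxcr4 -0.36, 1.26 and 0.90 in that order. Weighting to the class shares of Neg gave Cxcl12 0.25 (AA+Ab over AA) and 0.73 (AA+Ab over Neg) and Cxcr4 0.082 (AA+Ab over AA). CPM without mitochondrial, ribosomal and hemoglobin genes gave Ackr3 0.11 (AA+Ab over AA).

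In the fibroblast cluster, Cxcl12 for AA over Neg was -0.068 (reversed) at resolution 0.4, where dermal papilla cells joined the cluster, 1.06 at resolution 1.5 and with endothelial cells left out, 0.82 with classes from markers in each cell, 0.086 after thinning and 0.70 without the highest cell of each library. AA+Ab over AA was 1.45 with doublets removed, 0.90 by mean CPM, 0.82 and 0.35 at resolutions 0.4 and 1.5, 0.085 with per-cell classes and 0.26 without endothelial cells. AA+Ab over Neg was 1.88 with doublets removed, 1.15 after thinning, 0.75 at resolution 0.4, 0.90 with per-cell classes and 1.31 without endothelial cells. Ackr3 there was, for AA over Neg, 0.077 by mean CPM, 0.054 after thinning, 0.28 at resolution 0.4, 0.054 at resolution 1.5 and without endothelial cells, and -0.088 (reversed) with per-cell classes. It was -0.44 for AA+Ab over AA by mean CPM. For AA+Ab over Neg it was -1.15 after thinning, -0.80 and -0.54 at resolutions 0.4 and 1.5, -0.92 with per-cell classes and -0.61 without endothelial cells.

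In T cells, Cxcr4 was -0.092 (AA over Neg) and 0.78 (AA+Ab over Neg) with per-cell classes, and 1.56 (AA+Ab over AA) and 1.03 (AA+Ab over Neg) after thinning. In DC/Mac, AA+Ab over AA was 0.90 by mean CPM, 1.22 after thinning and -0.37 with per-cell classes, and AA+Ab over Neg was 1.63 after thinning. In keratinocytes, Cxcl12 was 0.56 (AA over Neg) with per-cell classes, 0.27 (AA over Neg) and 0.15 (AA+Ab over Neg) at the cluster shares of Neg, 0.0084 (AA+Ab over AA, reversed) by mean CPM, and -0.00066 (AA+Ab over AA) and 0.67 (AA+Ab over Neg) after thinning. Keratinocyte Cxcr4 after thinning was -1.41, -1.20 and -2.61, from 6, 5 and 2 cells. Keratinocyte Ackr3 was -0.12, 0.12 and 0.0039 at the cluster shares of Neg, and for AA+Ab over AA 0.13 without mitochondrial, ribosomal and hemoglobin genes and 0.16 by mean CPM.

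Shares of cells after thinning were 1.68%, 2.35% and 2.29% for Cxcl12, 0.524%, 0.396% and 0.858% for Cxcr4 and 6.66%, 6.69% and 7.19% for Ackr3 in Neg, AA and AA+Ab. Ackr3 shares were 40.1%, 35.2% and 37.3% at a mitochondrial limit of 5%, 36.9%, 31.6% and 34.2% without doublets, and 39.7% in Neg at a minimum of 500 genes. Genes past a ratio of 2 numbered 660, 703 and 466 in place of 2196, 2289 and 1635 past 1.5. For AA+Ab over Neg the count was 990 with at least 50 UMIs and 2687 with 20 UMIs over both libraries. At a ratio of 2 the pathway list had 2 genes past it for AA+Ab over AA and 0 for AA+Ab over Neg. The alternatives added after seeing the data were the weighting of clusters, leaving out the highest cell, leaving out endothelial cells and leaving out fibroblasts with at least 20 Cxcl12 UMIs. Classes of fewer than 50 cells per library limit most leukocyte comparisons.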
